A study of Homo sapiens with 6 samples.

Results

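The mRNA levels of 10 genes of the NF-kB system were followed in T24 cells, a human bladder carcinoma line. The genes were listed by their role in the system, with earlier results of these data known: the 5 subunits NFKB1, NFKB2, REL, RELA and RELB, the inhibitors NFKBIA, NFKBIB and NFKBIE, the ubiquitin-editing enzyme TNFAIP3, and BCL3. All 10 are among the 23152 genes of the table, and all 10 were among the 14467 genes that passed the filter on low counts. RNA-seq was done on 3 samples labelled as vector and on 3 samples overexpressing the E3 ubiquitin ligase RNF112 (oeRNF112). Counts assigned to genes were 40029547 to 41259569 per sample. The treatment label describes a transfection with siRNA, whereas the group labels give a vector and an overexpression of RNF112, and the construct in the sequenced cells is not given in the sources used here. RNF112 itself was counted 27, 19 and 24 times in vector and 29753, 36963 and 31712 times in oeRNF112 cells. Both groups come from 1 cell line, and no label states that the 3 samples of a group are separate cultures, so the p-values measure only the spread between these samples.

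NF-kB is a family of dimeric transcription factors. In resting cells most dimers are held in the cytoplasm by IkB proteins or by the ankyrin repeats of the precursors p105 and p100, encoded by NFKB1 and NFKB2. Inflammatory receptors activate the IKK complex, which leads to the destruction of IkB or to the processing of p100, and the released dimers switch on cytokines, survival genes and several of their own inhibitors. These fed-back genes include NFKBIA, NFKB2 and TNFAIP3, and in epithelial tumours such as bladder carcinoma the pathway is known for its inflammatory and survival output.

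The promoter windows of most of these genes hold matches to the site that NF-kB dimers bind. Stretches of TNFAIP3, NFKB2, NFKB1, REL and NFKBIA are shown, called and uncalled members alike. RefSeq (GRCh38.p14) gave promoter windows, from 250 bases before to 50 after the start site, for 13 start sites of 8 members, without an entry for RELB and NFKBIE. The kB consensus, searched on both strands, had a match at 8 of the 13 start sites and in 7 of the 8 members, RELA being the member without one in its window. In BCL3, not shown, the matched place begins 2 bases after the start site and none lies before it. Among all 35116 promoter windows of the same length, 11.3% had a match. Capitals mark the matched bases, in the direction of the gene's strand, and a match is a match of letters only.
TNFAIP3, chr6:137867188-137867217, + strand: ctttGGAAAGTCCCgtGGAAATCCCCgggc
NFKB2 (start site 2), chr10:102394462-102394490, + strand: aaacgtcatGGGAATTCCCCcctccgggg
NFKB2 (start site 3), chr10:102395674-102395703, + strand: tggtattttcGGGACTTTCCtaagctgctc
NFKB1, chr4:102501300-102501329, + strand: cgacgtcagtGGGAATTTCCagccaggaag
REL, chr2:60881518-60881546, + strand: gtcagccgcGGGAAATTCCCctcccgcca
NFKBIA, chr14:35404811-35404840, - strand: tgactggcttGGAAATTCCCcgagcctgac

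TNFAIP3 had 2 matches next to each other, beginning 67 and 55 bases before its start site, and both read as the consensus on the opposite strand. The matches shown for NFKB2 begin 107 bases before start site 2, where overlapping matches lie on both strands, and 21 bases before start site 3. NFKB1, REL and NFKBIA had theirs 49, 47 and 81 bases before the start. Some spellings were shared by several members. GGGAATTTCC was present, on either strand, in NFKB1, REL, NFKBIA and NFKBIB and in 0.145% of all windows, and GGGACTTTCC in TNFAIP3 and NFKB2 and in 0.191%. Both spellings are versions of the consensus and were picked out after the matches were seen. The TNFAIP3 stretch lies wholly within an exon of an alternative GENCODE transcript, and the first NFKB2 stretch within the exon that follows its first start site. Members whose levels differed between the groups and members whose levels overlapped both had matches, as the values below show.

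Of the 10 genes, TNFAIP3 and NFKB2 rose in oeRNF112 cells and 0 fell, and 8 did not pass the test (edgeR's quasi-likelihood test, adjusted p under 0.05 over all tested genes). TNFAIP3 was 2.23-fold and NFKB2 1.25-fold the vector level. Calls were common in this comparison: 18.1% of all tested genes passed, 9.97% higher and 8.14% lower, so that 2 of 10 members is close to the background share. Without TMM, scaled to library totals alone, 2020 genes were higher and 659 lower, against 1442 and 1178, and the same 2 members were called. With DESeq2 the 2 same members were called, against 19.5% of its genes. The 3 values of each group did not overlap for 5 of the 10 members (NFKB1, NFKB2, RELA, TNFAIP3 and BCL3), against 36.8% of tested genes. This tally depends on the scaling. In RPKM, which are scaled to the sample total, 7 of the 10 did not overlap (NFKB2, RELA, RELB, NFKBIA, NFKBIE, TNFAIP3 and BCL3), against 37.9% of tested genes, and NFKB1 did overlap. Overlap in the paragraphs on single genes is that of TMM-normalized CPM. At an unadjusted p under 0.05, 4 members passed (TNFAIP3, NFKB2, BCL3 and NFKB1), against 33.1% of tested genes, and 2 of these 4, BCL3 and NFKB1, had lower fitted values. The median log2 fold change of the members was 0.10, and that of all tested genes was 0.00267.

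**Figure D1:**
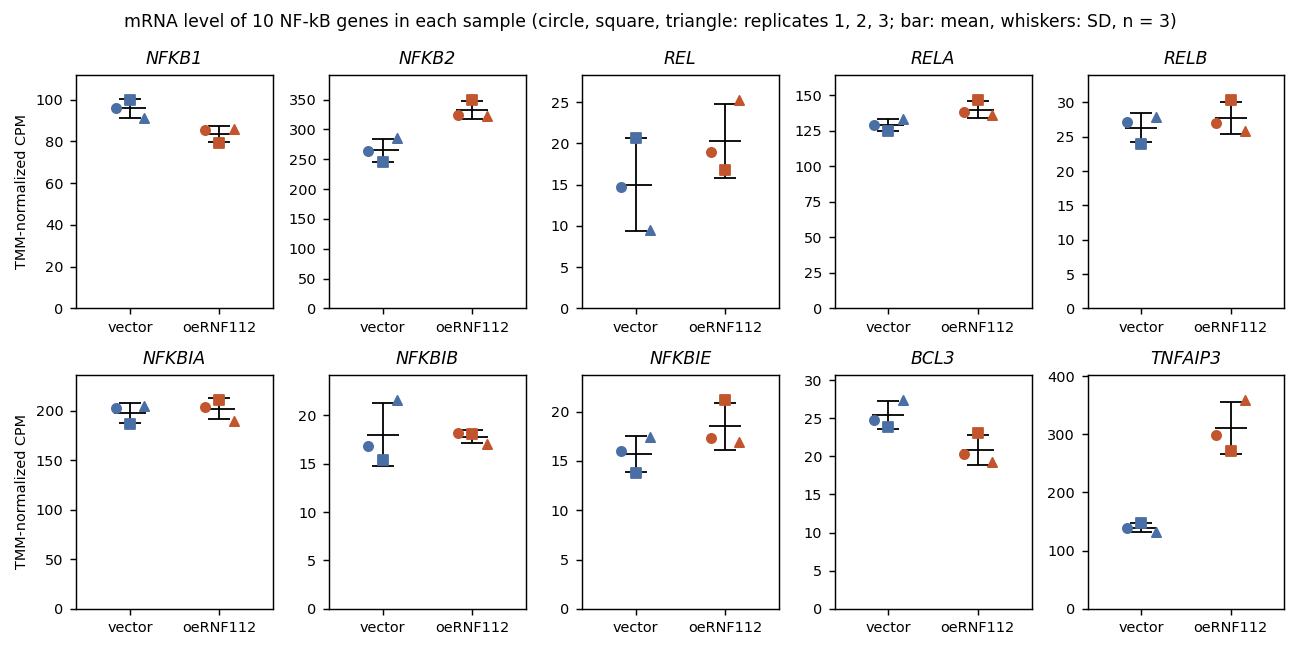
TMM-normalized CPM (counts scaled to the library size) of each of the 10 genes in the 3 vector and the 3 oeRNF112 samples, each panel on its own axis from 0, with the group mean (bar) and SD (whiskers). TNFAIP3 lies at 132 to 147 in vector and at 272 to 359 in oeRNF112, while the groups of NFKBIA and NFKBIB overlap.

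TNFAIP3 encodes A20, which removes and adds ubiquitin on signalling adaptors and so restrains IKK activation. Its level was 138, 147 and 132 TMM-normalized CPM in vector and 298, 272 and 359 CPM in oeRNF112 cells. The lowest oeRNF112 value was 1.85 times the highest vector value, so the groups were far apart, and the spread was wider among the oeRNF112 samples (SD 44.8, n = 3) than among the vector samples (SD 7.69, n = 3). The raw counts behind these levels were 5450, 5889 and 5094 against 12340, 11192 and 15217. The log2 fold change was 1.16 ± 0.112 (SE), with a 95% interval of 0.91 to 1.40 (edgeR adjusted p = 0.000283). Of all tested genes, 3.32% had a log2 fold change as high, and 0.422% had an adjusted p as small. The call was kept in all 15 alternative fits, in which the log2 fold change lay between 1.04 and 1.25. An antisense gene overlaps the TNFAIP3 locus (chr6:137866349-137883312, GRCh38.p14, + strand), and the strand setting used in counting is not given in the sources used here.

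NFKB2 encodes p100, which is both an inhibitor of RELB dimers and the precursor of the subunit p52. Its level was 264, 246 and 285 CPM in vector and 324, 350 and 323 CPM in oeRNF112 samples. The groups did not overlap, and the lowest oeRNF112 value was 1.13 times the highest vector value. The means were 265 ± 19.4 and 332 ± 15.0 CPM (SD, n = 3 each), and the log2 fold change was 0.33 ± 0.088 (SE), with a 95% interval of 0.13 to 0.52 (edgeR adjusted p = 0.0306). The call did not hold in most fits with 1 sample fewer. Leaving out 1 sample at a time, NFKB2 kept its direction in all 6 fits, with a log2 fold change of 0.27 to 0.38, but passed the threshold in 1 of the 6. The edgeR adjusted p was 0.102 without vector replicate 1, 0.0637 without vector replicate 2, 0.0272 without vector replicate 3, 0.094 without oeRNF112 replicate 1, 0.0666 without replicate 2 and 0.0629 without replicate 3. NFKB2 lies at chr10:102394110-102402529 on the + strand.

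NFKB1 encodes p105, the precursor of p50 and the counterpart of p100. Its level was 95.9, 100 and 91.2 CPM in vector and 85.5, 79.0 and 86.0 CPM in oeRNF112 samples. On this scale every oeRNF112 sample was lower than every vector sample, opposite to the direction of NFKB2, whereas in RPKM the groups overlapped. The difference of -0.20 in log2 (SE 0.0844, 95% interval -0.39 to -0.01) did not pass the correction (edgeR adjusted p = 0.13), and with library totals in place of TMM it was -0.106. NFKB1 passed in 0 of the 15 alternative fits. The 2 precursor genes were therefore also set against each other within each sample, per length, as the log2 ratio of their RPKM. The NFKB2 to NFKB1 ratio was 1.70, 1.54 and 1.88 in vector and 2.16, 2.39 and 2.15 in oeRNF112 samples. On the linear scale NFKB2 mRNA exceeded NFKB1 mRNA by a factor of 2.90 to 3.69 in vector and 4.44 to 5.23 in oeRNF112 cells, without overlap. The mean log2 ratio was higher by 0.53 in oeRNF112 cells. Within each group the 2 genes had opposite orders of samples, described below, so this variation adds up in the ratio and does not cancel. The two-sided exact permutation test gave p = 0.1, which is the smallest p that 3 samples against 3 can give, and 0.15 after adjustment over the 3 ratios tested.

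Among the subunits that carry a transactivation domain, none was called. RELA encodes p65, the main activating subunit of the canonical pathway. It was at 129, 125 and 133 CPM in vector and at 138, 147 and 136 in oeRNF112 samples. The groups did not overlap, but the gap between them was narrow, the lowest oeRNF112 value being 1.02 times the highest vector value, and the log2 difference of 0.12 (95% interval -0.06 to 0.30) did not pass (edgeR adjusted p = 0.335). RELB, the partner of p52 in the non-canonical pathway, was at 27.1, 23.9 and 27.9 CPM against 27.0, 30.4 and 25.9. Its groups overlapped, with a log2 difference of 0.08 (95% interval -0.16 to 0.31). The log2 ratio of RELB to RELA, per length, was -2.09, -2.23 and -2.10 in vector and -2.19, -2.12 and -2.23 in oeRNF112 samples, overlapping as well (exact permutation p = 0.6, adjusted 0.6).

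REL encodes c-Rel, a subunit best known from lymphocytes. It was the member with the widest spread between samples, at 14.7, 20.7 and 9.48 CPM in vector and 18.9, 16.8 and 25.3 in oeRNF112 samples. The counts were 583, 828 and 366 against 782, 689 and 1073, so the spread was far beyond counting error. The highest vector sample was 2.18 times the lowest, and the groups overlapped. The log2 difference was 0.44 with a 95% interval of -0.11 to 0.99 (edgeR adjusted p = 0.246), an interval that holds both no change and a change larger than that of NFKB2. Vector replicate 2 alone decided the call: without it the log2 difference was 0.74 and passed (edgeR adjusted p = 0.0184).

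**Figure D2:**
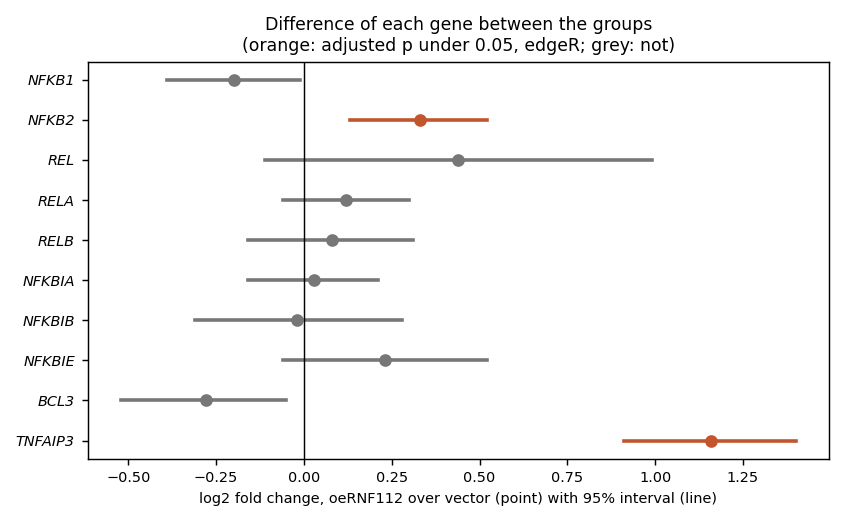
Log2 fold change of oeRNF112 over vector for each of the 10 genes (points) with its 95% interval (lines), from edgeR. TNFAIP3 at 1.16 stands apart from NFKB2 at 0.33 and from the 8 genes that did not pass, whose fitted values run from -0.28 to 0.44.

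The IkB genes, which encode the cytoplasmic inhibitors, were not called. NFKBIA encodes IkB-alpha, the classic feedback inhibitor of the canonical pathway. It was at 203, 187 and 205 CPM in vector and at 204, 211 and 190 in oeRNF112 samples. The groups overlapped in CPM but not in RPKM, where all oeRNF112 samples were higher. The log2 difference was 0.03 with a 95% interval of -0.16 to 0.21 (edgeR adjusted p = 0.86), and it was 0.12 with library totals. The upper end of this interval lies far below the 0.91 at the lower end of the interval of TNFAIP3, another fed-back inhibitor. Per length, TNFAIP3 mRNA was at 0.123, 0.143 and 0.117 of the NFKBIA level in vector and at 0.264, 0.234 and 0.342 of it in oeRNF112 samples, given as a description with no test. NFKBIB encodes IkB-beta, and it was at 16.8, 15.4 and 21.6 CPM against 18.2, 18.1 and 17.0, with all oeRNF112 values inside the vector range. The sign of its difference, -0.02, turned with the scaling used. NFKBIB shares part of its locus with SIRT2 on the opposite strand, whose log2 difference was -0.06. NFKBIE encodes IkB-epsilon, a slower feedback inhibitor, and was at 16.0, 13.8 and 17.4 CPM against 17.3, 21.2 and 16.9. Its groups overlapped, with a log2 difference of 0.23 and a 95% interval of -0.06 to 0.52 (edgeR adjusted p = 0.242).

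The summed RPKM of the 3 IkB genes was set against the summed RPKM of RELA, RELB, REL, NFKB1 and NFKB2 in each sample. The ratio was 0.924, 0.883 and 0.914 in vector and 0.843, 0.828 and 0.792 in oeRNF112 samples. All oeRNF112 samples were lower, and the log2 ratio differed by -0.14, from -0.14 ± 0.034 to -0.29 ± 0.0459 (SD, n = 3 each). The exact permutation test again gave its smallest value, p = 0.1, and 0.15 after adjustment. The IkB sum was mostly NFKBIA, with means of 123 RPKM in vector and 134 in oeRNF112 cells. NFKBIB and NFKBIE had means of 6.84 and 6.48 RPKM in vector and of 7.23 and 8.13 in oeRNF112 cells. NFKB2 held the largest share of the subunit sum, with 45.2% ± 1.54 in vector and 50.1% ± 0.482 in oeRNF112 cells. It is counted here as a subunit, although its product p100 is also an inhibitor. The lower ratio is therefore not separate from the rise of NFKB2, and a ratio without NFKB2 was not tested. RELA made up 32.7% ± 0.26 and 31.3% ± 0.297, NFKB1 13.9% ± 1.21 and 10.7% ± 0.862, RELB 7.43% ± 0.347 and 6.93% ± 0.34, and REL 0.856% ± 0.352 and 1.02% ± 0.251. These are shares of mRNA, and the proteins were not measured here.

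BCL3 encodes a nuclear IkB-like protein that binds p50 and p52 homodimers and can activate through them. It was at 24.8, 23.9 and 27.4 CPM in vector and at 20.3, 23.0 and 19.2 CPM in oeRNF112 samples. The groups did not overlap, but the highest oeRNF112 sample came close to the lowest vector sample. The log2 difference of -0.28 (SE 0.107, 95% interval -0.52 to -0.05) did not pass (edgeR adjusted p = 0.0931), and it passed in 0 of the 15 alternative fits. BCL3 was lower in every oeRNF112 sample in CPM and in RPKM alike, without being called.

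The length-scaled levels gave the order of the 10 transcripts. RPKM values follow the sample total, a scaling under which the median of all tested genes was 0.0962 higher in log2 in oeRNF112 cells, and they are read here for the order of genes within a group. In vector cells NFKBIA was at the top with 123 ± 3.99 RPKM, followed by NFKB2 at 67.9 ± 3.97, RELA at 49.1 ± 0.877 and NFKB1 at 20.8 ± 1.35 (SD, n = 3). TNFAIP3 came next at 15.6 ± 1.14 and RELB at 11.2 ± 0.708. NFKBIB at 6.84 ± 1.15 and NFKBIE at 6.48 ± 0.663 were the only neighbours in the order whose samples overlapped, and below them lay BCL3 at 4.68 ± 0.286 and REL at 1.28 ± 0.5. In oeRNF112 cells TNFAIP3 moved above NFKB1, and no neighbours overlapped. TNFAIP3 was at 15.3, 16.9 and 14.7 RPKM in vector and 35.8, 32.0 and 43.7 in oeRNF112 samples. NFKB1 was at 20.6, 22.2 and 19.6 RPKM and then at 19.8, 17.9 and 20.2. NFKBIE, at 8.13 ± 0.918 RPKM, also came to lie above NFKBIB, at 7.23 ± 0.203, although neither gene was called.

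The samples of a group also differed among themselves in a pattern shared by several members, which was seen only after the values were known. NFKB1, REL and TNFAIP3 were highest in replicate 2 and lowest in replicate 3 of the vector samples, and highest in replicate 3 and lowest in replicate 2 of the oeRNF112 samples. NFKB2, RELA, RELB, NFKBIA, NFKBIE and BCL3 had exactly the reverse order, and NFKBIB had neither. The first order was found in 14.9% of all tested genes, with a median length of 7752 bases and a median GC content of 42.6%, and the reverse in 15.3%, with 2053 bases and 54.8%. Over all tested genes the medians were 3982 bases and 48.3%. REL, with a length of 11393 bases and a GC content of 38.7%, had the widest spread, and TNFAIP3 has 8616 bases and 49.5%. NFKBIA, with 1559 bases and 53.1%, is the shortest member. Length alone did not sort the members: BCL3, with 5244 bases and 67.4%, had the order of the shorter genes. NFKB1, with 4464 bases and 50.1%, had that of the longer genes. The spread of TNFAIP3 within a group was at most 1.32-fold from lowest to highest, beside its 2.23-fold difference between the groups. That of NFKB2 was at most 1.16-fold, beside its 1.25-fold difference. For REL the spread of up to 2.18-fold was above its difference. Small spreads were not particular to called members: NFKB1, at most 1.10-fold, and BCL3, at most 1.20-fold, also had groups that did not overlap in CPM. The part of length and base composition in all these group differences was not tested.

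**Figure D3:**
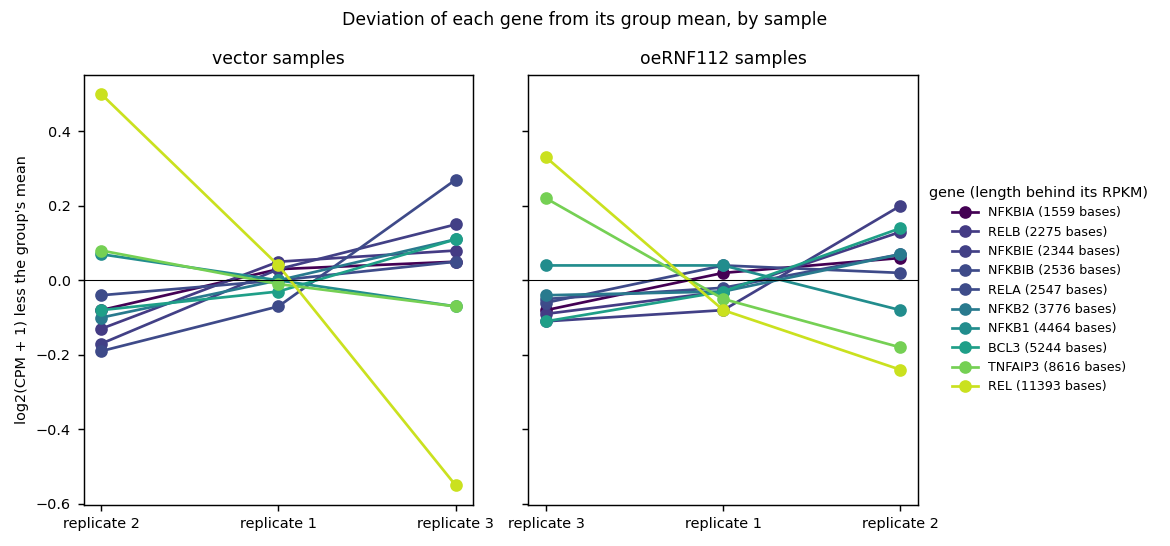
Deviation of each gene in each sample from its group mean, as log2(CPM + 1), with lines joining the values of a gene and colour giving gene length. The replicates are placed in the order of REL, which ranges from 0.50 to -0.55 among vector samples, and most other members slope the opposite way.

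The other genes of the pathway were described by 5 lists, read from the receptor to the target genes. In the receptors and adaptors, 2 of 23 tested genes rose, 0 fell and the median log2 fold change was 0.02, with EDAR not tested. The 8.70% that rose lies below the 9.97% of all tested genes. The risen genes were IL1R1, the signalling receptor of interleukin-1, and TNFRSF1B, the second TNF receptor. IL1R1 went from 3.21, 3.58 and 2.36 CPM to 8.01, 6.64 and 8.20 (log2 fold change 1.32, edgeR adjusted p = 0.00138). TNFRSF1B had 11, 6 and 5 counts in vector and 55, 44 and 82 in oeRNF112 samples, so its log2 fold change of 2.94 (edgeR adjusted p = 0.00139) rests on few counts.

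Of the 14 genes of the IKK complex and its kinases, 1 rose and 3 fell, with a median of -0.01. CHUK, which encodes IKK-alpha, the kinase that drives p100 processing, went from 72.2, 78.6 and 64.6 CPM to 87.6, 84.2 and 103 (0.35, edgeR adjusted p = 0.0498). MAP3K14, which encodes NIK, the kinase above IKK-alpha, went from 21.7, 22.0 and 22.3 CPM to 16.8, 16.9 and 17.9 (-0.35, edgeR adjusted p = 0.0263). Each of these calls was lost in most fits that left out 1 sample: CHUK was called in 2 of 6 and MAP3K14 in 1 of 6. The scaffold CARD10 fell by 0.49 on the log2 scale (edgeR adjusted p = 0.00833) and TAB1, an activator of the kinase TAK1, by 0.41 (edgeR adjusted p = 0.012), with CARD10 called in 6 of 6 and TAB1 in 4 of 6 such fits. MAP3K14 was also lost with library totals. Over all 15 alternative fits, CHUK was called in 8 and MAP3K14 in 5. The canonical kinase IKBKB, at -0.17, and the regulatory subunit IKBKG, at -0.05, did not pass. The 3 of 14 that fell stand beside 8.14% of all tested genes, and the 1 of 14 that rose beside 9.97%.

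Among the other brakes of the pathway, 2 of 14 tested genes rose, 0 fell and the median was 0.10, with TNIP3 not tested. The 14.3% that rose stands beside 9.97% of all tested genes, and the count was 0 without oeRNF112 replicate 1 and 0 without vector replicate 1. TNIP1, an adaptor through which A20 reaches its substrates, went from 352, 317 and 351 CPM to 437, 469 and 414 (0.37, edgeR adjusted p = 0.0187), and was called in 4 of the 6 fits that left out 1 sample. N4BP1, a ubiquitin-binding suppressor of cytokine production, had a log2 fold change of 0.36 (edgeR adjusted p = 0.0351) and was called in 2 of those 6. CYLD, a deubiquitinase that acts beside A20, was at 0.29 and did not pass. Of the 2 atypical IkB genes NFKBIZ rose, from 69.4, 75.6 and 63.7 CPM to 102, 98.6 and 135 (0.68, edgeR adjusted p = 0.00654), and NFKBID at -0.23 did not pass. The samples of NFKBIZ were ordered as those of TNFAIP3, as were those of IL1R1, CHUK and N4BP1 and of 14.9% of all tested genes. TNFRSF1B and TNIP1 had neither of the 2 orders described above.

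The last list holds known target genes of NF-kB. It was written with earlier results of these data known, so no set test was made and its shares are a description only. It leaves out the members, among them the fed-back genes TNFAIP3 and NFKB2, which were called, and NFKBIA, which was not. Of 44 tested, 21 rose (47.7%, against 9.97% of all tested genes), 5 fell (11.4%, against 8.14%) and 18 did not pass, with a median of 0.32 beside the 0.00267 of all tested genes. CXCL10, CCL2, CX3CL1, VCAM1 and SELE had too few counts to be tested. The risen targets ranged from 0.33 to 2.73 in log2. IL6 went from 41.6, 34.4 and 40.1 CPM to 106, 131 and 130 (1.66, edgeR adjusted p = 4.34e-05). BCL2A1, an anti-apoptotic relative of BCL2, went from 1.67, 1.55 and 1.66 CPM to 9.34, 13.8 and 9.30 (2.73, edgeR adjusted p = 5.18e-05). The chemokine genes CCL20 and CXCL8 had log2 fold changes of 1.94 and 1.41. The change of TNFAIP3, at 1.16, lay within the range of the risen targets, and that of NFKB2, at 0.33, at its lower end. That range holds only genes past the threshold, so a called member is likely to lie in it. Beside all 44 tested targets, NFKB2 lay close to their median of 0.32.

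The 5 targets that fell were IRF1, CXCL6, LTB, TNFAIP2 and PLAU. PLAU was called in 1 of the 6 fits that left out 1 sample and was lost with library totals. IRF1, an interferon-responsive transcription factor, went from 70.4, 65.0 and 68.2 CPM to 39.7, 39.5 and 39.4 (-0.78, edgeR adjusted p = 0.000411). LTB, the membrane partner of lymphotoxin, had 27, 25 and 32 counts in vector and 4, 2 and 7 in oeRNF112 cells. CXCL6, a neutrophil chemokine, went from 8.57, 8.33 and 8.22 CPM to 4.39, 5.21 and 4.46, so that every oeRNF112 sample lay well below every vector sample.

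**Figure D4:**
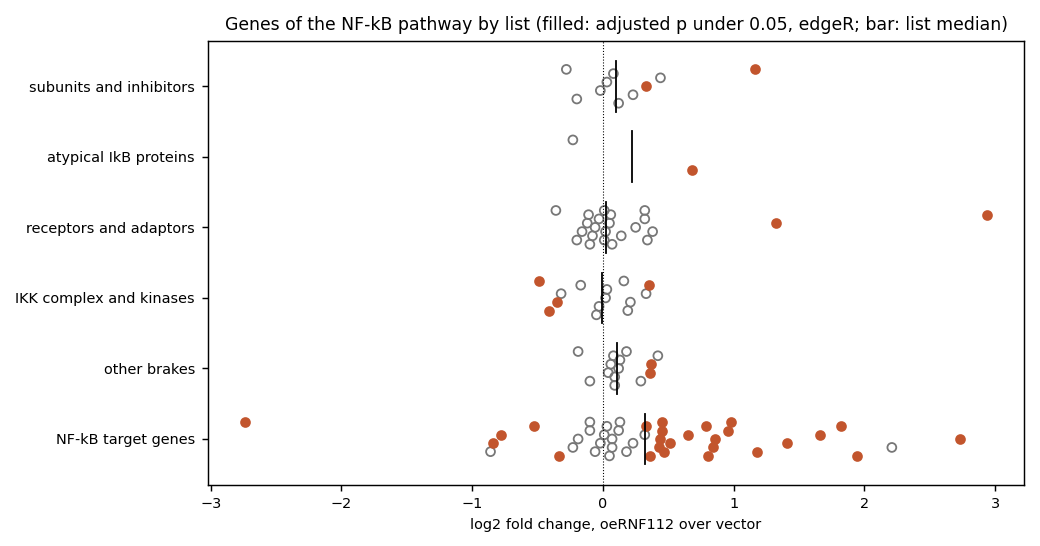
Log2 fold change of oeRNF112 over vector for every tested gene of the 10 subunits and inhibitors and of 5 further NF-kB lists, filled where edgeR's adjusted p is under 0.05, with the list median as a vertical bar. The medians lie at 0.10 for the subunits and inhibitors and at 0.32 for the target genes, of which 21 are called higher and 5 lower.

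Markers of other cells were read beside these levels, since a bulk sample cannot tell fewer cells of a type from less RNA per cell. Of 12 leukocyte markers, 10 were in the table, and CD3E, ITGAM, CSF1R and NKG7, with no sample above 15 counts, were left untested by the filter. CD68, which lysosome-rich cells of many kinds also express, rose from 25.0, 21.8 and 24.7 CPM to 51.3, 64.3 and 49.7 (edgeR adjusted p = 0.000312), and LAPTM5 fell by 0.88 on the log2 scale (edgeR adjusted p = 0.0308), a call kept in 2 of 6 fits that left out 1 sample and lost with library totals. The summed leukocyte counts were 1340 to 1465 in vector and 2372 to 2896 in oeRNF112 samples, and without CD68 they were 385 to 478 and 251 to 385. The part of CD68 in the differences of the NF-kB genes was not tested. The epithelial keratin genes KRT7 and KRT18 were among the abundant transcripts of every sample, at 940 to 1660 and 738 to 1300 CPM, and UPK2 and UPK3A, markers of differentiated urothelium, had at most 7 counts.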

How the data were processed

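RNA-seq of 6 T24 samples was analysed, 3 vector and 3 oeRNF112. The authors deposited a table of raw counts per gene beside RPKM values. Per the labels' processing notes, reads were trimmed with Trimmomatic 0.36 and counted with featureCounts of Subread 1.5.1 on GRCh38, from a stranded mRNA library. The strand setting of the counting is not given in the sources used here. The deposited RPKM equal count over sample total and 1 length per gene, within 0.1%, for 16237 of 16237 genes with counts in all samples. Counts of 14467 genes that passed filterByExpr were fitted with edgeR 4.0.16 (R 4.3.3; TMM factors of 0.957 to 0.988 in vector and 1.01 to 1.05 in oeRNF112 samples), with quasi-likelihood tests and Benjamini-Hochberg adjustment over all of them, at a threshold of 0.05. CPM printed are TMM-normalized. DESeq2 1.42.0, limma 3.58.1 on log2(RPKM + 1) and other settings, 15 in all, were alternatives. The 3 ratios of summed or single RPKM were compared with two-sided exact permutation tests. No 2 samples were copies of each other. GC content was read from each gene's longest GENCODE transcript (91.4% of tested genes had one), and lengths are those behind the RPKM. The rule named the 10 members, up to 4 called genes with the smallest p in each direction of each pathway list, its untested genes, and the 3 genes closest in pattern to TNFAIP3 and NFKB2, of which 1 is not reported here. PLAU, NFKBID, IKBKB, IKBKG, CYLD, SIRT2 and the cell markers were named after their values were seen. The overlap of groups in RPKM was counted after the values were seen. Members and lists were chosen with earlier results of these data known.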

Additional observations from a re-analysis of the deposited data

How the results depend on the processing

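The count of members called higher was 2, and 1 to 2 when 1 sample was left out, and the pair was TNFAIP3 and REL without vector replicate 2. The count called lower was 0 in every fit. TNFAIP3 was called in all 15 alternatives, with adjusted p of 1.49e-18 to 0.00481, and NFKB2 in 9. RELA was called only by limma on log2(RPKM + 1), at 0.21 (adjusted p = 0.0459). The sign of NFKBIB turned to 0.0792 with library totals, 0.0902 with limma on log2(RPKM + 0.1) and 0.0788 on log2(RPKM + 1), with or without a minimum mean RPKM of 1, and lay between -0.117 and 0.139 with 1 sample left out. NFKBIA lay between -0.0171 and 0.0668 in those fits, and at 0.12 with library totals and 0.119 with limma on RPKM.

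Replicate numbers shared by the groups did not pair the samples: the deviations of same-numbered samples correlated at -0.215, -0.61 and -0.522. With the replicate block 1 member was called, TNFAIP3, and over all tested genes 618 were higher and 258 lower, against 1442 and 1178 without it. Under it NFKB2 had an adjusted p of 0.188 and 13 target genes were higher, against 21. The IKK list went from 1 higher and 3 lower to 0 and 0, and the other brakes from 2 higher to 0. Leaving out 1 sample gave 702 (without vector replicate 1) to 1841 (without vector replicate 2) genes higher and 359 to 1546 lower, and 14 to 21 target genes higher. These counts for all genes and lists were added after seeing the data.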

Other observations

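The genes whose pattern over the 6 samples was most like that of TNFAIP3, among 11564 genes and by the root mean square difference of log2(CPM + 1) less each gene's vector mean, were SLC22A15 (0.0582), LONRF3 (0.0666) and KIF21B (0.068). Their log2 fold changes were 1.18, 1.27 and 1.20, beside 1.16 for TNFAIP3, a likeness that the choice by pattern brings about. Genes close to NFKB2 by the same measure included HID1 (0.025) and KCNK1 (0.0271), with log2 fold changes of 0.38 and 0.31. Neither HID1 nor KCNK1 was called (edgeR adjusted p = 0.063 and 0.0569). These are descriptions over the samples of this comparison, with no test.

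Of 9 tested epithelial and bladder cancer markers 3 fell and 0 rose, against 8.14% and 9.97% of all tested genes. KRT18 and KRT7 fell in oeRNF112 cells, by 0.51 and 0.48 on the log2 scale (edgeR adjusted p = 0.013 and 0.0226), KRT18 being called in 12 and KRT7 in 7 of the 15 alternatives. FOXA1, a transcription factor of luminal urothelium, was at 35.8, 41.1 and 37.1 CPM in vector and at 20.4, 13.9 and 19.7 in oeRNF112 samples (-1.08, edgeR adjusted p = 0.00132), and it was lower in every fit tried. KRT8, KRT19, VIM, UPK1A, GATA3 and PPARG did not pass, and the urothelial factors GATA3 and PPARG had fitted values above 0, at 0.14 and 0.11.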
